A study of Homo sapiens with 6 samples.

Results

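The 10 genes described here encode the contractile cytoskeleton by which smooth muscle and myoepithelial cells are usually recognised, together with their more widely expressed relatives: ACTA2, TAGLN, TAGLN2, CNN1, CNN2, CALD1, MYL9, TPM1, TPM2 and ACTN1. They were taken by name, through the Entrez Gene ID of each row of the expression table, and are 10 of the 18795 genes in it. Of the 10, 9 reached the mean of 1 FPKM required for testing, as did 12454 of all genes. MYL9 did not. FPKM is a fragment count per transcript length and per library size, so that levels of different genes can be set side by side only per length.

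Messenger RNA had been sequenced from MDA-MB-468 and HCC70, 2 human breast cancer cell lines of the basal-like kind, which express keratins of both layers of the mammary duct. After methanol fixation and antibody staining, flow cytometry had split each line into K18+Vim+ cells (keratin 18 with vimentin), K18+K14+ cells (keratin 18 with keratin 14) and K18+ cells (keratin 18). Each line gave 1 library per population, 6 in all, and the labels give no drug treatment. The 2 lines are therefore the only replicates of a population. For comparisons of populations, the spread behind a p-value rests on how far the lines disagree about the difference. For the comparison of the lines, it rests on how unevenly their difference runs over the sorted populations. These are fractions of a line and not replicates of it. Neither is the spread between separate cultures. The lines were also grown in different media (Leibovitz medium for MDA-MB-468, RPMI for HCC70), which cannot be told apart from the line itself.

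In the mammary duct, an inner luminal layer is wrapped by myoepithelial cells, which contract to move milk. Their force comes from myosin II sliding on actin filaments, switched on when the regulatory light chain is phosphorylated by myosin light chain kinase and switched off when a phosphatase removes the phosphate. Tropomyosin lies along the filament, calponin and caldesmon bind it and restrain myosin, transgelin bundles it, and alpha-actinin cross-links it and ties it to adhesions. Most of these genes are targets of serum response factor, which binds a promoter element named the CArG box and works with myocardin in smooth muscle or with myocardin-related factors in other cells. ACTA2, CNN1 and TAGLN serve as markers of myoepithelium in breast pathology, whereas TAGLN2, CNN2 and ACTN1 are made by many epithelial cells.

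Promoter windows (RefSeq, GRCh38.p14, 250 bases before to 50 bases after a gene start, read along the strand of the gene) were matched for 8 of the 10 genes, in 18 windows. TAGLN and MYL9 had no matching window and were not searched. The expression table itself was built on GRCh37 and holds no coordinates. The CArG box, searched on both strands, was present in 2 of the 18 windows, and in 453 of all 34943 windows (1.3%). A copy with 1 mismatch in its middle 6 bases was present in 2 of the 18, and in 2427 of all windows (6.95%). Not printed are a CArG box in a window of ACTN1, 171 bases before the start, and a 1-mismatch copy in a window of CALD1, 26 bases before. Below, capitals mark a CArG box in CNN2, 89 bases before the start, and in ACTA2 the 1-mismatch copies 121 and 71 bases before the start. CNN1 has neither in its window. These windows are shown because CNN2 and CNN1 are paralogues whose levels lay far apart in every library, and because ACTA2 is the best known marker of the set. A match is a description of letters and not a measured binding site, and its relation to level was not tested.
CNN2, chr19:1026358-1026657, plus strand: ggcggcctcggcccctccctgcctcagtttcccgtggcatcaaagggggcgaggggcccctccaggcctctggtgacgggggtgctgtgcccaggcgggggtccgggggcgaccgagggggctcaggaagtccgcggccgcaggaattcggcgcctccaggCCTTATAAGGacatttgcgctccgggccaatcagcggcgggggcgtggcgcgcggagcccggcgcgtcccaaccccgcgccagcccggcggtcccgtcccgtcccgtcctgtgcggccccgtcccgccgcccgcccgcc
CNN1, chr19:11538601-11538900, plus strand: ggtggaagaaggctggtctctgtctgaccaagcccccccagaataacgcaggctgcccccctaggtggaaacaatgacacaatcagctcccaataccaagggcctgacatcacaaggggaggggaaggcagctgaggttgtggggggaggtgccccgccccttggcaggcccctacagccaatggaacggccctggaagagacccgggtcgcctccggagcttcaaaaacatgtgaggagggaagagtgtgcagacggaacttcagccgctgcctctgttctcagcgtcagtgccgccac
ACTA2, chr10:88952724-88953023, minus strand: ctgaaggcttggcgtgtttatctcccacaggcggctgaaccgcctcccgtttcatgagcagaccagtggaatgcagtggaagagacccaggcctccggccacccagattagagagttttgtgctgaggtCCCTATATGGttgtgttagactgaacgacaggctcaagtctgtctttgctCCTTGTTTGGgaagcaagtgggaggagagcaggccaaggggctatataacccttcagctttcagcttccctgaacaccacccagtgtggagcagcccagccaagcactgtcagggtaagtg

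One library stood apart from its line and label. In the MDA-MB-468 library labelled K18+Vim+, VIM was at 259 FPKM, but KRT18, the antigen shared by all 3 gates, was at 67.7 FPKM, against 569 FPKM in the K18+K14+ and 464 FPKM in the K18+ library of that line. The summed FPKM of 9 luminal markers was 334 in that library and between 4011 and 7314 in the other 5. The sum of 12 basal and myoepithelial markers was 88.2 there and between 469 and 1516 in the others. Of these, LAMA3 was highest in its line there, at 23.3 FPKM against 1.01 and 4.25 FPKM. So was NGFR, near the floor, at 0.352 FPKM against 0.1 and 0.166 FPKM. The sum of 8 mesenchymal markers was 308 there, against 141.7 in HCC70 K18+Vim+ and between 20.1 and 78.4 in the remaining 4. VIM, itself a gated antigen, made up 259 of the 308 and 54.8 of the 141.7 FPKM. FN1 was lower in that MDA-MB-468 library than in HCC70 K18+Vim+ (16.9 against 81.6 FPKM). The other mesenchymal markers were higher, such as TWIST1 (8.99 against 0.1 FPKM). For the comparisons of the set below that rest on that MDA-MB-468 library, fitted values or calls without it are also given. Correlations over the 6 libraries are given only with it. Fibroblast and endothelial markers were low throughout: 9 fibroblast genes summed to between 4.79 and 12.2 FPKM, 5 endothelial genes to between 0.5 and 1.57, with PECAM1 and TEK listed at the floor of the table (0.1 FPKM) in all 6. The 9 markers of vascular smooth muscle and pericytes, which include ACTA2 and CNN1 of the set, summed to 18.3, 45.7 and 55.0 FPKM in K18+Vim+, K18+K14+ and K18+ cells of MDA-MB-468 and to 52.8, 65.7 and 80.6 FPKM in HCC70, and their part in the results was not tested. NOTCH3, a receptor that these cells also carry, made up most of the higher sums, at between 5.20 FPKM in MDA-MB-468 K18+Vim+ and 69.6 FPKM in HCC70 K18+ cells. Of the others, DES was between 0.1 and 0.278 FPKM, LMOD1 between 0.1 and 0.78, and MYH11 between 0.466 and 2.32. RGS5 was between 0.1 and 2.36 FPKM and CSPG4 between 0.1 and 0.155. MCAM was highest in the K18+Vim+ library of each line. It was at 5.18, 1.72 and 1.37 FPKM in K18+Vim+, K18+K14+ and K18+ cells of MDA-MB-468, and at 5.51, 2.295 and 3.47 FPKM in HCC70. KRT14 was highest in the K18+K14+ library of each line. Fewer cells of a kind and less RNA per cell cannot be told apart in these bulk libraries, and the number of reads behind a value is unknown.

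In each of the 6 libraries the widely expressed TAGLN2, CNN2 and ACTN1 stood above the markers ACTA2, CNN1 and TAGLN. The tropomyosins TPM2 and TPM1 were also high. TPM2 lay above its paralogues TPM3 (58.4 to 122 FPKM) and TPM4 (34.1 to 127 FPKM) in every library. TAGLN2 and TPM2 had the highest mean levels, followed by TPM1, ACTN1, CNN2, CALD1 and TAGLN, and then by ACTA2, CNN1 and MYL9. In both lines the K18+ libraries had at least 275 FPKM of TAGLN2 and less than 3 FPKM of ACTA2 and of CNN1. Most neighbours in this order overlap over the 6 libraries. CNN1 (0.45 to 3.15 FPKM) and MYL9 (0.1 to 0.25 FPKM) do not. The range of TPM2 over the 6 libraries encloses that of TAGLN2, the ranges of TPM1, ACTN1 and CNN2 overlap, and CALD1 passes from above TAGLN in MDA-MB-468 to below it in HCC70.

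**Figure D1:**
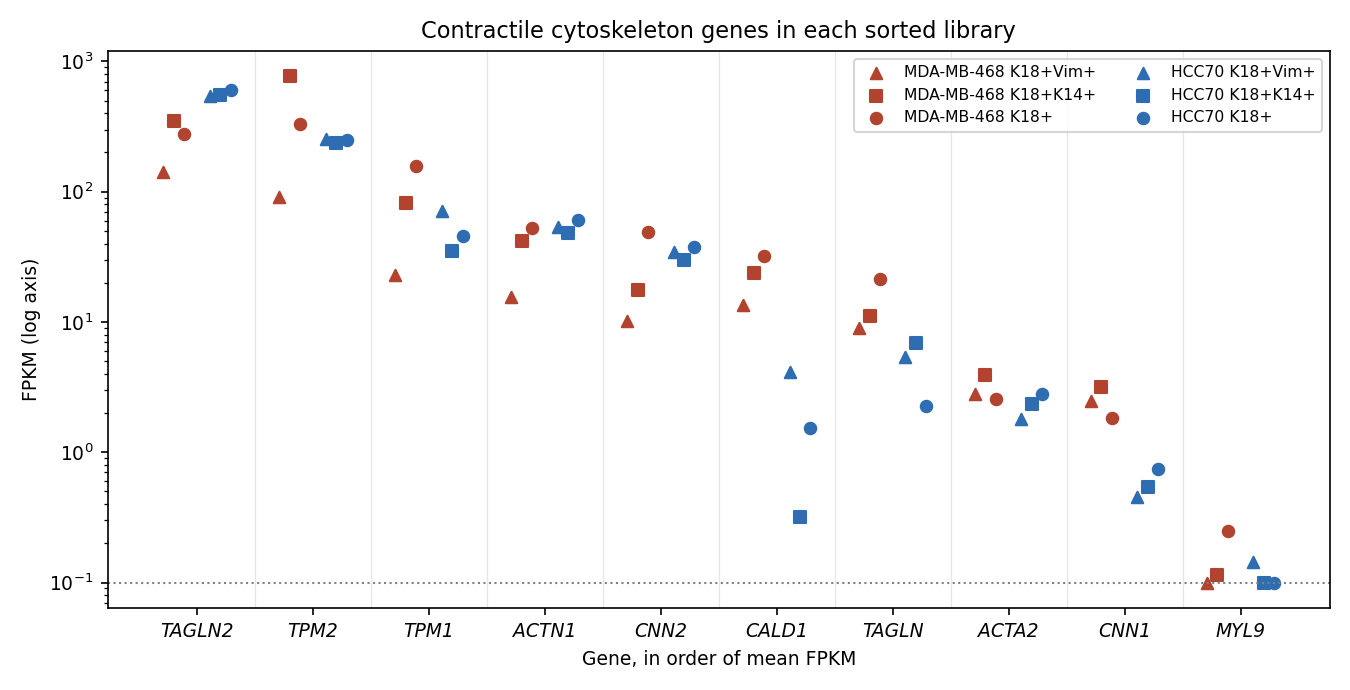
FPKM (log axis) of the 10 genes in each sorted library, in order of mean level, with triangles for K18+Vim+, squares for K18+K14+ and circles for K18+, red for MDA-MB-468 and blue for HCC70. The dotted line is the floor of the table, 0.1 FPKM. TAGLN2 lay between 142 and 601 FPKM, ACTA2 between 1.79 and 3.91, and CALD1 shows the widest gap between the lines.

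ACTA2 (Entrez Gene 59), the smooth muscle alpha-actin, was at 2.79, 3.91 and 2.55 FPKM in the K18+Vim+, K18+K14+ and K18+ libraries of MDA-MB-468, and at 1.79, 2.35 and 2.78 FPKM in the same order in HCC70. All 6 values were low and the lines overlapped. Set against ACTB, the cytoplasmic beta-actin that every cell makes, ACTA2 amounted to between 0.0404% and 0.111% of its FPKM. Actin genes are near-identical over much of their coding sequence and how shared reads were assigned is not given in the sources used here, so a level this far below ACTB is uncertain. ACTG2, the smooth muscle gamma-actin, was lower still, between 0.1 and 1.44 FPKM, and ACTC1, the cardiac actin, was listed at the floor in all libraries. ACTA1, a further actin, was at 2.48 FPKM in MDA-MB-468 K18+Vim+ and between 0.207 and 0.567 FPKM in the others.

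MYL9 (Entrez Gene 10398), the regulatory light chain of smooth muscle myosin, was listed at 0.1, 0.115 and 0.25 FPKM in the K18+Vim+, K18+K14+ and K18+ libraries of MDA-MB-468, and at 0.143, 0.1 and 0.1 FPKM in HCC70. These values are at or just over the floor, and the gene was not tested. Its paralogues MYL12A and MYL12B, the light chains of non-muscle myosin, were between 94.7 and 547 FPKM and between 121 and 765 FPKM. Both lay above MYL9 in every library.

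The transgelins differed in level and in how they split the lines. TAGLN (Entrez Gene 6876), the smooth muscle form, was at 8.94, 11.1 and 21.3 FPKM in K18+Vim+, K18+K14+ and K18+ cells of MDA-MB-468, against 5.41, 6.89 and 2.26 FPKM in HCC70. Every MDA-MB-468 library was above every HCC70 library, and the K18+ library was the highest of its line in MDA-MB-468 and the lowest in HCC70. TAGLN2 (Entrez Gene 8407), the form made by epithelial and blood cells, was at 142, 348 and 275 FPKM in MDA-MB-468, against 544, 549 and 601 FPKM in HCC70. Here every MDA-MB-468 library was below every HCC70 library. The ratio of TAGLN2 to TAGLN was 15.9, 31.4 and 12.9 in the 3 MDA-MB-468 libraries, and 100.5, 79.7 and 266 in those of HCC70.

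The calponins showed the same kind of contrast. CNN1 (Entrez Gene 1264), the basic calponin of smooth muscle, was at 2.49, 3.15 and 1.84 FPKM in K18+Vim+, K18+K14+ and K18+ cells of MDA-MB-468, against 0.45, 0.538 and 0.741 FPKM in HCC70. The lines did not overlap. CNN2 (Entrez Gene 1265), the calponin of non-muscle cells whose window carries the CArG box printed above, was at 10.1, 17.7 and 49.3 FPKM in MDA-MB-468, against 34.6, 30.1 and 37.4 FPKM in HCC70. The MDA-MB-468 values spread on both sides of those of HCC70, which lay close together. CNN2 stood above CNN1 in every library, by 4.07, 5.62 and 26.9 times in MDA-MB-468 and by 77.0, 56.0 and 50.5 times in HCC70. CNN3, the acidic calponin, was higher than CNN2 in all 6 libraries, between 27.2 and 74.5 FPKM.

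CALD1 (Entrez Gene 800), caldesmon, was at 13.5, 23.8 and 32.1 FPKM in K18+Vim+, K18+K14+ and K18+ cells of MDA-MB-468, against 4.11, 0.317 and 1.55 FPKM in HCC70. The lines were apart in every population, by 3.28 times in K18+Vim+, 75.0 times in K18+K14+ and 20.75 times in K18+ cells. The 0.317 FPKM in HCC70 K18+K14+ cells is close to the floor, which makes the middle ratio the least certain of the 3.

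TPM1 (Entrez Gene 7168), the alpha-tropomyosin, was at 23.0, 82.4 and 158 FPKM in K18+Vim+, K18+K14+ and K18+ cells of MDA-MB-468, against 70.6, 34.8 and 46.0 FPKM in HCC70. K18+Vim+ was the lowest library of MDA-MB-468 and the highest of HCC70. TPM2 (Entrez Gene 7169), the beta-tropomyosin, was at 91.2, 772 and 330 FPKM in MDA-MB-468, against 254, 236 and 249 FPKM in HCC70. The 3 HCC70 libraries differed by at most 1.08 times and those of MDA-MB-468 by up to 8.46 times. ACTN1 (Entrez Gene 87), alpha-actinin 1, was at 15.5, 42.0 and 52.5 FPKM in MDA-MB-468, against 53.8, 48.1 and 60.9 FPKM in HCC70. The lines overlapped, and the MDA-MB-468 library labelled K18+Vim+ was the lowest of the 6. TPM2 was the leading tropomyosin by FPKM in all 6 libraries, 2.09 to 9.36 times TPM1.

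**Figure D2:**
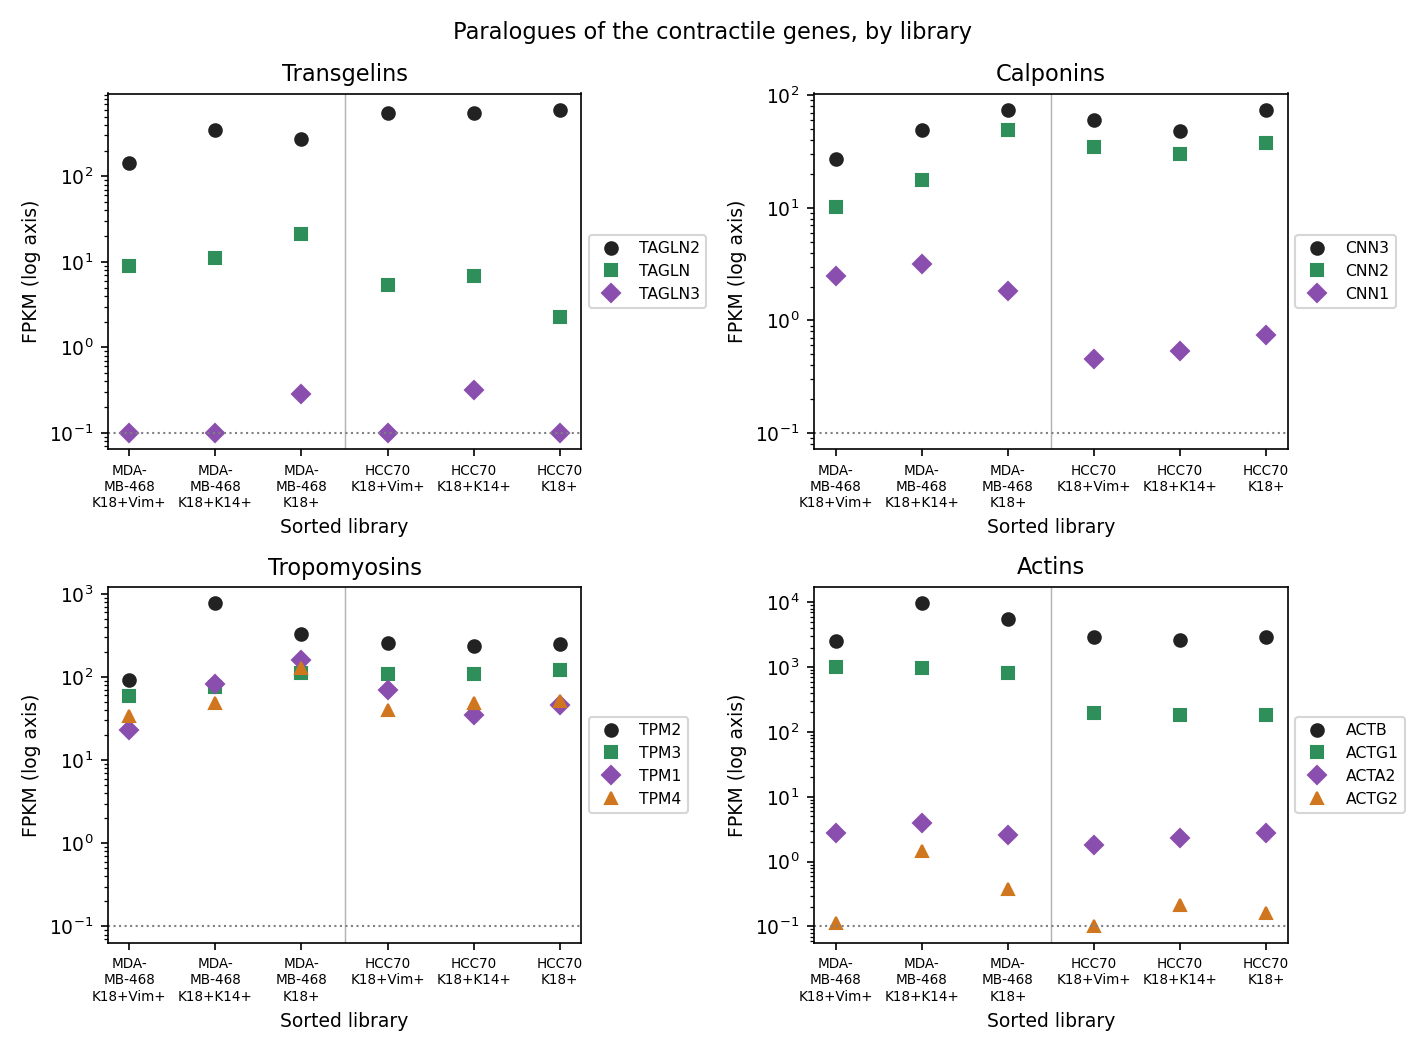
FPKM (log axis) of the transgelins, calponins, tropomyosins and actins in each sorted library, the 3 of MDA-MB-468 on the left of each panel and the 3 of HCC70 on the right; the dotted line marks 0.1 FPKM. The smooth muscle forms TAGLN, CNN1 and ACTA2 lie below TAGLN2, CNN2 and ACTB in every library, while ACTG1 sits between 805 and 992 FPKM in MDA-MB-468 and between 180 and 194 FPKM in HCC70.

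Setting K18+K14+ beside K18+ cells asks whether contractile genes accompany keratin 14, a keratin of myoepithelial cells. None of the 9 genes passed the test with limma after Benjamini-Hochberg adjustment over all genes, nor did any of the 12454 (0.0%), while 428 (3.44%) had an unadjusted p under 0.05. The markers themselves differed little: the fitted log2 difference was 0.15 ± 0.41 for ACTA2, 0.19 ± 0.44 for CNN1 and 0.20 ± 0.61 for TAGLN (SE, n = 2 lines; limma adjusted p = 0.953, 0.944 and 0.961). These 3 signs, and that of TAGLN2 (0.10 ± 0.50), turned under rescaling to equal summed FPKM, to values between -0.17 and -0.02. CNN2 had the most negative estimate, -0.86 ± 0.55 (limma adjusted p = 0.855), from log2 ratios of -1.43 in MDA-MB-468 and -0.30 in HCC70.

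Within the lines, 4 genes (CNN2, CALD1, TPM1 and ACTN1) were lower in K18+K14+ than in K18+ cells of both lines and 0 were higher in both. Over all genes tested, 43.7% were lower in both and 20.2% higher in both, so this share is near the background. The 4 kept their signs in both lines under quantile normalization, removal of a length trend and equal summed FPKM. The other 5 of the 9 tested genes (ACTA2, TAGLN, TAGLN2, CNN1 and TPM2) had log2 ratios of opposite sign in the lines. For ACTA2 the ratio was 0.47 in MDA-MB-468 and -0.17 in HCC70, and the HCC70 value was 0.03 after quantile normalization. For TAGLN2 it was 0.34 in MDA-MB-468 and -0.13 in HCC70, and the MDA-MB-468 value was -0.29 after quantile normalization and -0.24 at equal sums. For CNN1 it was 0.55 in MDA-MB-468 and -0.18 in HCC70. TPM2 and TAGLN were the 2 whose ratio passed 1 in 1 line. TPM2 was at 772 FPKM in K18+K14+ and 330 FPKM in K18+ cells of MDA-MB-468, a log2 ratio of 1.22, against a ratio of -0.08 in HCC70. The MDA-MB-468 K18+K14+ library also had the highest summed FPKM (765161, against 489714 to 563278 in the other 5), and the TPM2 ratio was 0.47 after quantile normalization and 0.64 at equal sums. TAGLN was at 11.1 in K18+K14+ and 21.3 FPKM in K18+ cells of MDA-MB-468 (log2 ratio -0.88), and at 6.89 and 2.26 FPKM in HCC70 (log2 ratio 1.28). The median log2 ratio of the 9 genes was -0.31 in MDA-MB-468 and -0.18 in HCC70, beside -0.17 and -0.15 over all genes. At equal sums the MDA-MB-468 medians moved to -0.88 for the 9 genes and -0.63 for all genes.

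Setting K18+Vim+ beside K18+ cells asks the same of vimentin and shares its K18+ libraries with the one before. No gene passed the test (0.0%), and 532 genes (4.27%) had an unadjusted p under 0.05. The lines disagreed. In MDA-MB-468, 6 of the 9 genes (TPM1, CNN2, TPM2, ACTN1, CALD1 and TAGLN) were lower in K18+Vim+ cells by at least 1 on the log2 scale, as were 16.9% of all genes, and 0 were higher by that much. In HCC70, 0 were lower and 1, CALD1, was higher by at least 1, against 3.42% and 1.65% of all genes. The median log2 ratio of the 9 genes was -1.19 in MDA-MB-468 and -0.11 in HCC70, beside -0.04 and -0.16 over all genes.

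TPM1 gave the widest split: 23.0 FPKM in K18+Vim+ and 158 FPKM in K18+ cells of MDA-MB-468 (log2 ratio -2.73), and 70.6 and 46.0 FPKM in HCC70 (log2 ratio 0.61). CALD1 and TAGLN split in the same manner, with ratios of -1.19 and -1.16 in MDA-MB-468 and of 1.01 and 0.98 in HCC70. CNN2, ACTN1 and TAGLN2 were lower in K18+Vim+ cells of both lines, as were 33.9% of all genes, while 0 genes of the set and 16.5% of all were higher in both. In HCC70 the ratios of CNN2 (-0.11) and ACTN1 (-0.18) were small and turned positive once a length trend was removed, to 0.01 and 0.04, CNN2 also after quantile normalization. ACTA2 and CNN1 were close to level, with fitted differences of -0.17 ± 0.41 and 0.02 ± 0.44 (SE, n = 2 lines; limma adjusted p = 0.972 and 0.998), and CNN1 was at -0.03 with equal sums.

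Most of this comparison rests on the MDA-MB-468 library labelled K18+Vim+, in which summed luminal and basal markers were also low. Their part in the lower values was not tested. Without that library the fitted differences were -0.17 for ACTN1, 0.35 for TPM2 and 0.44 for TAGLN. They were -0.03 for TAGLN2, -0.28 for ACTA2 and -0.08 for CNN1. Without it, the fitted difference of TPM1 was 0.47 ± 0.49, that of CALD1 1.14 ± 0.45 and that of CNN2 -0.39 ± 0.51, and no gene was called. Without the HCC70 K18+Vim+ library instead, 1500 genes (12.0%) were called, and among them TPM1 (-2.59 ± 0.48, limma adjusted p = 0.00871), CNN2 (-1.89 ± 0.50, adjusted p = 0.0424) and ACTN1 (-1.70 ± 0.45, adjusted p = 0.0412). In either fit the K18+Vim+ population is 1 library, which is assumed to vary as the others do.

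**Figure D3:**
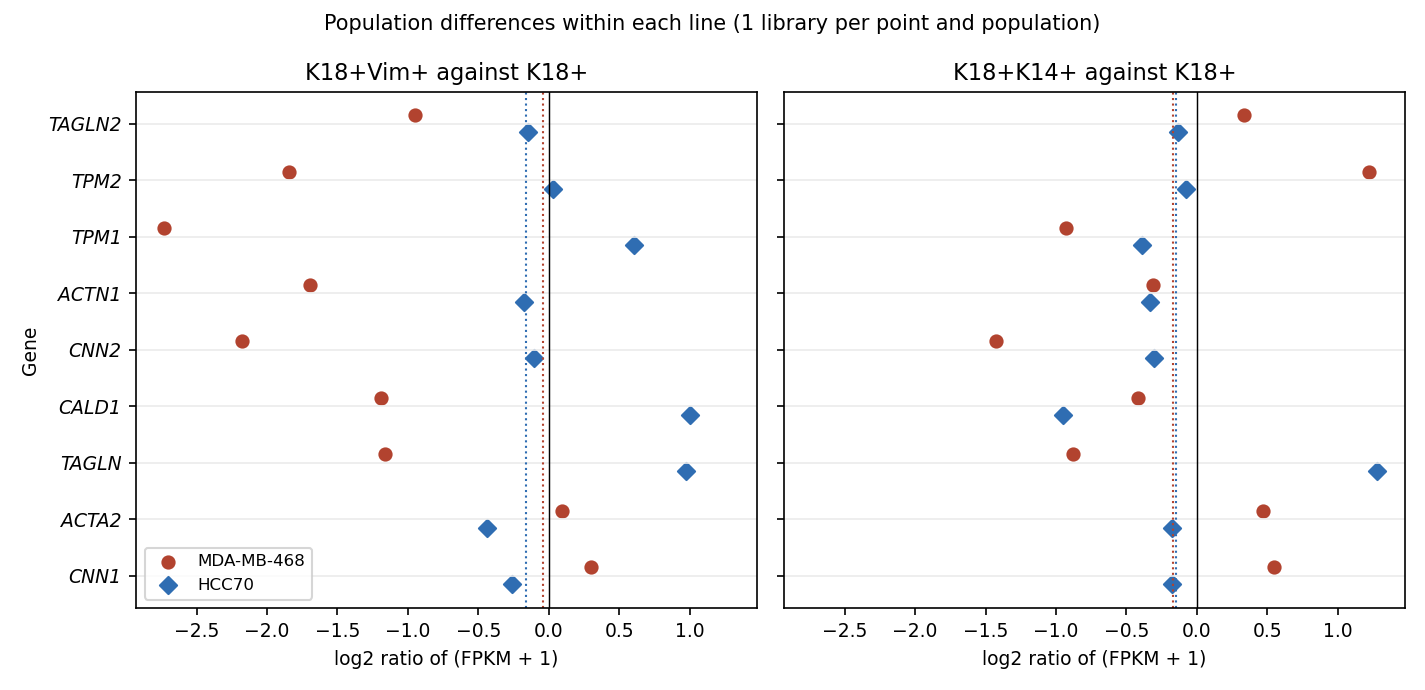
Log2 ratios of (FPKM + 1) of the 9 tested genes within MDA-MB-468 (red circles) and HCC70 (blue diamonds), K18+Vim+ against K18+ on the left and K18+K14+ against K18+ on the right; each point is 1 library over 1 library, and dotted lines are the medians of all genes. TPM1, CALD1 and TAGLN lie on opposite sides of 0 in the left panel, from -2.73 for TPM1 in MDA-MB-468 to 1.01 for CALD1 in HCC70.

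Set directly against K18+K14+ cells, K18+Vim+ cells gave no called gene (0.0%), with 680 genes (5.46%) at an unadjusted p under 0.05. TPM2 had the largest estimate, -1.48 ± 0.75 (SE, n = 2 lines, limma adjusted p = 0.682), and it came from 1 line: 91.2 FPKM in K18+Vim+ against 772 FPKM in K18+K14+ cells of MDA-MB-468, and 254 against 236 FPKM in HCC70. Without the MDA-MB-468 library labelled K18+Vim+ its estimate was -0.22. The other estimates were then 1.13 for TPM1, 1.82 for CALD1, 0.48 for CNN2, 0.24 for TAGLN and 0.15 for ACTN1. They were -0.42 for ACTA2, -0.27 for CNN1 and -0.13 for TAGLN2. In this fit, and in the one without the HCC70 K18+Vim+ library, the K18+Vim+ population is 1 library. ACTA2, TAGLN, TAGLN2 and CNN1 were lower in K18+Vim+ cells of both lines and 0 genes higher in both, against 23.7% lower and 25.6% higher over all genes. Of the 4, ACTA2 kept its sign under all scalings tried. At equal sums TAGLN and CNN1 turned to 0.12 and 0.07 in MDA-MB-468, and TAGLN2 in HCC70, at -0.01, turned to 0.01 once a length trend was removed. All 9 genes were lower in K18+Vim+ cells of MDA-MB-468, as were 45.5% of all genes, by a median of -0.78 beside 0.12 over all genes, and at equal sums 7 of 9 were, with medians of -0.35 and 0.47. CALD1 went the other way in HCC70, at 4.11 FPKM in K18+Vim+ and 0.317 FPKM in K18+K14+ cells. Without the HCC70 K18+Vim+ library 1988 genes (16.0%) were called, TPM1 (-1.93, limma adjusted p = 0.0269) and TPM2 (-2.74, adjusted p = 0.0251) among them, and without the MDA-MB-468 library labelled K18+Vim+ none was.

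Between the lines, over matched populations, CALD1 rose in MDA-MB-468 relative to HCC70. Its fitted log2 difference was 3.15 ± 0.55 (SE, 3 libraries per line, limma adjusted p = 0.0227). These libraries are sorted fractions of each line and not replicates of it. CALD1 was the only one of the 9 genes called, where 1522 of all genes (12.2%) were, 565 (4.54%) higher and 957 (7.68%) lower. CNN1 (1.13 ± 0.36, limma adjusted p = 0.0851), TAGLN (1.34 ± 0.50, adjusted p = 0.118) and TAGLN2 (-1.24 ± 0.41, adjusted p = 0.0924) did not pass, although their libraries did not overlap between the lines. TAGLN2 passed after quantile normalization and at equal sums (limma adjusted p = 0.0285 and 0.0283). With CALD1, 3 of 9 genes lay wholly above HCC70 and 1 wholly below, against 20.1% and 21.0% of all genes. TPM1 (0.47 ± 0.65), TPM2 (0.21 ± 0.62), ACTA2 (0.30 ± 0.34), CNN2 (-0.67 ± 0.45) and ACTN1 (-0.71 ± 0.42) had overlapping libraries and did not pass, and the sign of TPM2 turned after quantile normalization (-0.10) and at equal sums (-0.07). The median over all genes was 0.01.

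The call of CALD1 was lost when any 1 of the 4 K18+ and K18+K14+ libraries was left out, with limma adjusted p between 0.0701 and 0.0999, and with no filter on low values (adjusted p = 0.178). It was kept without either K18+Vim+ library. Without both, the line comparison was tighter: 3366 genes (27.0%) were called, 1432 higher (11.5%) and 1934 lower (15.5%). CALD1 (3.97 ± 0.35, limma adjusted p = 0.000161), TAGLN (1.69 ± 0.49, adjusted p = 0.0353), TPM1 (1.49 ± 0.37, adjusted p = 0.0189) and CNN1 (1.07 ± 0.33, adjusted p = 0.0427) were then higher in MDA-MB-468, 4 of 9 genes. In these 4 libraries TPM1 was at 82.4 and 158 FPKM in MDA-MB-468 and at 34.8 and 46.0 FPKM in HCC70. TPM2 (1.05 ± 0.52, adjusted p = 0.163) and TAGLN2 (-0.89 ± 0.50, adjusted p = 0.214) did not overlap between the lines and did not pass. In all, 5 of 9 genes lay wholly above HCC70 and 1 below in these libraries, against 30.4% and 32.2% of all genes. Without the MDA-MB-468 library labelled K18+Vim+ alone the same 4 genes were called, with 3344 of all genes (26.9%).

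**Figure D4:**
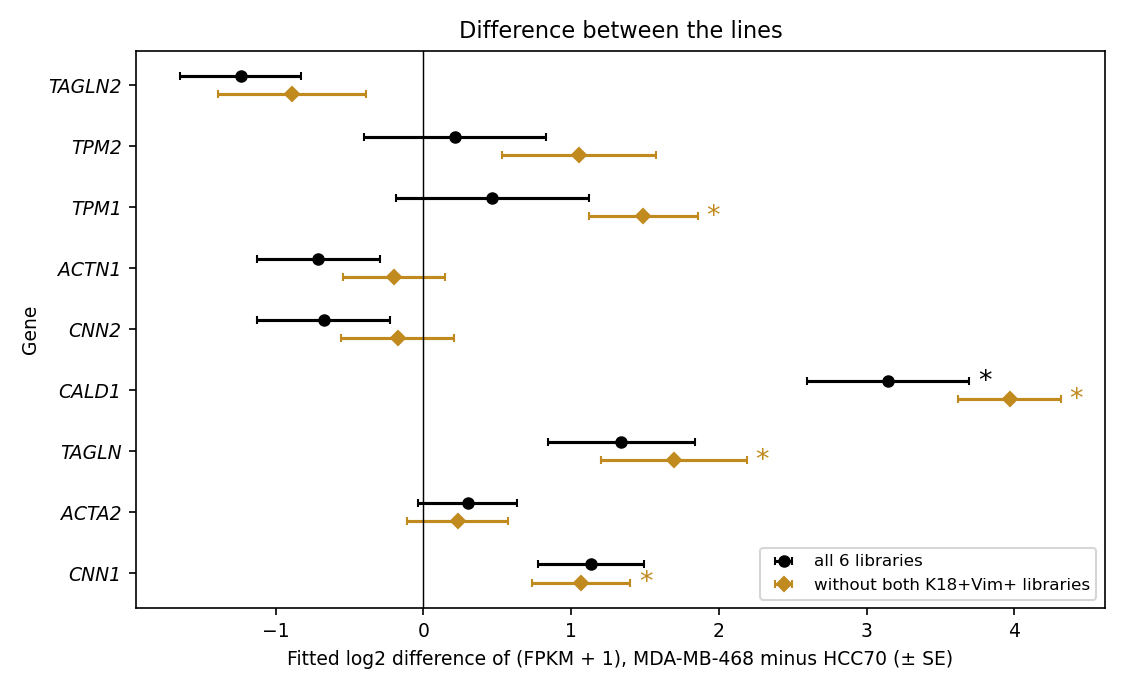
Fitted log2 difference of (FPKM + 1), MDA-MB-468 minus HCC70, with its SE for the 9 tested genes, over all 6 libraries (black circles) and without both K18+Vim+ libraries (gold diamonds); a star marks a limma adjusted p under 0.05. CALD1 is starred in both fits, at 3.15 and 3.97, and TAGLN, TPM1 and CNN1 are starred without the K18+Vim+ libraries.

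The same comparisons were read over genes that act with this set. In the population comparisons none of the listed genes passed the test. Of 11 tested genes of a longer smooth muscle and myoepithelial list, 2 (MYH11, smooth muscle myosin heavy chain, and SMTN, smoothelin) were higher in K18+K14+ than in K18+ cells of both lines, and 4 were lower in both, shares near those of all genes (20.2% higher and 43.7% lower). MYH11 had 1.28 FPKM in K18+K14+ and 0.903 FPKM in K18+ cells of MDA-MB-468, and 2.32 against 1.003 FPKM in HCC70, and SMTN at 55.8 against 36.7 and 22.9 against 19.1 FPKM. In K18+Vim+ against K18+ cells 2 of the 11 were higher in both lines and 3 lower, again near the shares of all genes (16.5% and 33.9%). The 2 were TGFB1I1, an adhesion protein also named Hic-5, with 2.75 FPKM in K18+Vim+ and 0.504 FPKM in K18+ cells of MDA-MB-468 and 13.7 against 7.21 FPKM in HCC70, and PDLIM3, a partner of alpha-actinin, with 4.51 against 0.535 and 9.81 against 6.67 FPKM. MYLK, the myosin light chain kinase, was at 0.859, 1.22 and 1.22 FPKM in K18+Vim+, K18+K14+ and K18+ cells of MDA-MB-468 and at 4.30, 0.895 and 1.47 FPKM in HCC70.

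Among 7 tested paralogues of the set, 6 were lower in K18+Vim+ than in K18+ cells of both lines and 0 higher, beside 33.9% of all genes lower and 16.5% higher in both. Their median log2 ratio was -1.87 in MDA-MB-468 (-0.04 over all genes) and -0.29 in HCC70 (-0.16 over all genes). The MDA-MB-468 value rests on the library labelled K18+Vim+ that was also low in summed luminal and basal markers, whose part was not tested. The HCC70 value is the one without it. The light chains MYL12A and MYL12B were the clearest by value, with log2 ratios of -2.52 and -2.24 in MDA-MB-468 and -0.44 and -0.54 in HCC70. In HCC70 they were no higher in K18+K14+ cells. MYL12A was at 207, 198 and 282 FPKM in K18+Vim+, K18+K14+ and K18+ cells of HCC70, and MYL12B at 223, 210 and 325 FPKM. The remaining paralogue, ACTN2, went the other way in MDA-MB-468, at 12.0 FPKM in K18+Vim+ and 0.1 FPKM in K18+ cells. In HCC70 it was at 0.1 FPKM in both. Against K18+K14+ cells, the median log2 ratio of the 7 paralogues in K18+Vim+ cells was -0.83 in MDA-MB-468 and 0.0 in HCC70. Over all genes these medians were 0.12 and -0.02.

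Between the lines, 1 of 3 tested actins, 2 of 9 myosin II genes, 3 of 11 smooth muscle genes and 0 of 7 paralogues passed the test, beside 12.2% of all genes. The actins include ACTA2 of the set, and counts this small are not read against that share. ACTG1, the cytoplasmic gamma-actin, rose in MDA-MB-468, at 992, 974 and 805 FPKM in K18+Vim+, K18+K14+ and K18+ cells, against 194, 182 and 180 FPKM in HCC70 (log2 difference 2.31 ± 0.36, limma adjusted p = 0.0181). Of the myosin II genes, MYH10, the heavy chain of non-muscle myosin IIB, rose (2.59 ± 0.39, limma adjusted p = 0.0169) and MYH14, that of IIC, fell (-2.11 ± 0.36, adjusted p = 0.0215). MYH10 was at 10.2, 4.64 and 5.02 FPKM in MDA-MB-468 and at 0.1, 0.1 and 0.446 FPKM in HCC70. Of the 11 smooth muscle genes SYNM (an intermediate filament protein) rose, by 1.56, while TGFB1I1 and LPP (a zyxin relative) fell, by log2 differences of -2.21 and -1.65 (limma adjusted p = 0.0418, 0.0157 and 0.0289). The calls of ACTG1, MYH10, MYH14, SYNM, TGFB1I1 and LPP were each lost when any 1 of the K18+ and K18+K14+ libraries was left out. Without both K18+Vim+ libraries, where 27.0% of all genes were called, the counts were 1 of 3, 2 of 9, 5 of 11 and 0 of 7.

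Of 22 tested factors and targets of serum response factor, 7 were called between the lines (12.2% of all genes were), 3 higher (CCN2, ACTG1 and CALD1) and 4 lower (FOS, ITGA5, TGFB1I1 and ZYX). CALD1 is itself a gene of the set, and ACTG1, TGFB1I1 and ZYX are counted in other lists too. The counts of the lists therefore share calls. Without both K18+Vim+ libraries 13 of the 22 were called, 8 higher and 5 lower (27.0% of all genes were). The median of the list was 0.295. CCN2, connective tissue growth factor, was at 4.88, 53.5 and 28.3 FPKM in K18+Vim+, K18+K14+ and K18+ cells of MDA-MB-468, against 0.574, 0.486 and 0.38 FPKM in HCC70 (3.84 ± 0.63, limma adjusted p = 0.0198). MYOCD, myocardin itself, was listed at the floor in all 6 libraries. SRF had a fitted difference of 0.70 ± 0.30 (limma adjusted p = 0.159). Of 21 adhesion and filament partners 3 were called, all lower in MDA-MB-468: FSCN1 (fascin, a filament bundler), ZYX (zyxin) and LCP1 (plastin 2). FSCN1 was at 10.8, 6.27 and 3.91 FPKM in MDA-MB-468, against 102, 73.3 and 77.9 FPKM in HCC70 (-3.50 ± 0.33, limma adjusted p = 0.00502). FOS and FSCN1 kept their calls when any 1 library was left out. The others named here lost theirs without some of the K18+ and K18+K14+ libraries, ITGA5 without either K18+ library and the rest without any 1 of the 4.

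The 9 genes did not vary as 1 block. Over the 6 libraries, on the log2 scale, CNN2 and ACTN1 had a Pearson correlation of 0.90, TAGLN2 and ACTN1 of 0.87, and CALD1 and CNN1 of 0.84, while TAGLN2 and CNN1 had -0.77. These points share 2 lines and 1 outlying library, so the values only describe the order of the libraries. Among 5802 other genes, the one most like TPM2 was CTTN, the actin-binding protein cortactin (r = 0.997), between 78.2 and 288 FPKM. The one most like ACTN1 was ZFP36L1 (r = 0.997), and for CNN1 it was EEF1G, a subunit of a translation elongation factor (r = 0.998). With 6 libraries and this many candidates, a value this high was found for each of the 9 genes, the lowest being 0.952 for TAGLN with ZNF124.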

How the data were processed

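RNA was sequenced from 6 sorted libraries, 3 populations of each of 2 cell lines. The authors deposited 1 table of FPKM per Entrez Gene ID. Per the labels' protocols, RNA came from cells fixed in methanol, by a kit made for fixed tissue, and reads were aligned with TopHat2 to GRCh37, per the submitters' processing notes. What counted the fragments, on which annotation and with which strand setting is not given, and the depth is unknown. Fixation can fragment RNA, and FPKM does not allow for fragments being lost unequally by transcript length. The values have a floor of 0.1 and a ceiling of 10000 FPKM. Of 18807 rows, 7 with a blank value and 5 repeats of an ID were left out, and 18732 of the 18795 IDs left matched a symbol.

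The 12454 genes whose mean reached 1 FPKM were taken as log2(FPKM + 1), which understates the differences of low genes, and went into 1 limma fit of all 6 libraries on population and line (lmFit, then eBayes with a trend; version 3.58.1, R 4.3.3), with 2 residual degrees of freedom. P-values were adjusted by Benjamini-Hochberg over all genes of a comparison, with a threshold of 0.05. By the labels each line gave every population once, which pairs the populations by line. The fit was tested on simulated data. Ratios within a line are 1 library over 1 library and have no test. Tables were made with Python 3.11.15, pandas 2.3.3 and numpy 2.4.6, figures with matplotlib 3.10.9.

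The 10 genes and all lists were chosen with earlier results of these data known. All 10 are named. From each list the rule names up to 4 genes per population comparison, by the smaller of the 2 absolute log2 ratios where the lines have the same sign, and the 4 with the largest difference between the lines. MYLK, ACTA1, ACTG2, ACTC1, MYOCD, SRF, LCP1, ACTN2 in K18+Vim+ against K18+ cells, and single cell type markers are named outside it, after their values were seen. Of the named genes the text gives those nearest to the set in function. Genes of like pattern are those with the highest Pearson correlation among genes with a mean of 5 FPKM or more and an SD of 0.5 or more (log2). Alternatives changed the block (none), the libraries fitted (those compared), the pseudocount (0.1 or 5), the filter (none, or a mean of 5 FPKM), the scaling (quantile) and the trend (none), removed a trend on transcript length, or left out 1 library. Rescaling to equal summed FPKM was added after seeing the data. The result of 1 further list is not reported here.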

Additional observations from a re-analysis of the deposited data

Results flagged for a closer look

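For 3 genes the log2 ratio between populations had opposite signs in the lines, at a size of at least 0.5 in each. Each is 1 library over 1 library per line, and the difference between the lines was not tested. Between K18+K14+ and K18+ cells, the log2 ratio of TAGLN in MDA-MB-468 was lower than in HCC70, a difference of -2.16. Between K18+Vim+ and K18+ cells it was lower by a difference of -2.14 for TAGLN, -2.20 for CALD1 and -3.34 for TPM1. Between K18+Vim+ and K18+K14+ cells the difference was -2.73 for CALD1 and -2.79 for TPM1. The last 5 rest on the MDA-MB-468 library labelled K18+Vim+, in which summed luminal and basal markers were low as well.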

How the results depend on the processing

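With 2 lines as replicates and an unknown depth, differences in the low genes ACTA2, CNN1 and MYL9 are the least certain. The pairing of populations by line changed no population call: without the replicate block 0 genes passed in each of the 3 comparisons, and 1875 passed between the lines with no population term, where CNN1 was then called beside CALD1 (limma adjusted p = 0.0446). Between the lines 3366 genes passed without both K18+Vim+ libraries and 0 with no filter on low values; the cause was not tested. With any 1 library left out, between 206 and 3360 genes passed between the lines, 0 to 1 in K18+K14+ against K18+, 0 to 1500 in K18+Vim+ against K18+ and 0 to 1988 in K18+Vim+ against K18+K14+. The counts of 1500 and 1988 came without HCC70 K18+Vim+. Between the lines the high counts came without either K18+Vim+ library, and the low ones, 206 to 326, without any 1 of the other 4. The line differences of ACTA2, TAGLN, TAGLN2, CNN1, CNN2, CALD1 and ACTN1 kept their sign under all alternatives run. TAGLN2 passed between the lines after quantile normalization (-1.63) and at equal sums (-1.52). Signs turned as follows, for reasons not tested. At equal sums, K18+K14+ against K18+ gave -0.061 for ACTA2, -0.040 for TAGLN, -0.167 for TAGLN2 and -0.020 for CNN1, K18+Vim+ against K18+ gave -0.027 for CNN1, and the lines gave -0.067 for TPM2. Quantile normalization gave -0.21 for TAGLN2 in the first of these, 0.037 for TAGLN and 0.025 for CALD1 in the second, and -0.10 for TPM2 in the last. A pseudocount of 0.1 gave -0.10 for CNN1 and 0.055 for CALD1 in K18+Vim+ against K18+. Without the length trend CALD1 was at 0.072 there, and ACTA2 at -0.0004 in K18+K14+ against K18+. Leaving out 1 library turned the fitted difference of the following, whose lowest and highest values are given. In K18+K14+ against K18+ cells they were ACTA2 -0.15 to 0.44, TAGLN -0.88 to 1.27, TAGLN2 -0.33 to 0.54, CNN1 -0.14 to 0.51, CALD1 -1.50 to 0.13, TPM1 -1.63 to 0.31, TPM2 -0.55 to 1.69 and ACTN1 -0.714 to 0.066. In K18+Vim+ against K18+ cells they were ACTA2 -0.46 to 0.12, TAGLN -1.17 to 0.98, CNN1 -0.30 to 0.34, CALD1 -1.33 to 1.14, TPM1 -2.59 to 0.47 and TPM2 -2.17 to 0.35. In K18+Vim+ against K18+K14+ cells they were TAGLN -0.83 to 0.25, CNN1 -0.390 to 0.056, CNN2 -1.03 to 0.48, CALD1 -0.64 to 1.82, TPM1 -1.93 to 1.13 and ACTN1 -1.38 to 0.15. Between the lines they were TPM1 -0.18 to 1.49 and TPM2 -0.53 to 1.05.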

Other observations

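The table holds 7 blank values, all in the column of the MDA-MB-468 library labelled K18+Vim+, and all 7 belong to genes whose symbol begins with the letters NAN.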
